A study of Mus musculus with 14 samples.

Results

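The mitochondrial ribosomal protein genes are nuclear genes named Mrpl or Mrps for the large and the small subunit of the mitochondrial ribosome. They were chosen by name alone, as every gene symbol in the table made of Mrpl or Mrps, a number and at most 1 letter. The rule took 78 of the 18132 named genes, 49 with an Mrpl name and 29 with an Mrps name. All 78 had a mean deposited value of at least 10 and entered the fit, which covered 17400 genes. No member was listed at 0 in any library.

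RNA was measured by poly-A sequencing in 14 whole mouse fetuses at gestational day 12.5, which had been injected as zygotes and carried by CD1 recipient dams. All fetuses were wild type (WT), with the strain given as F1 C57BL/6Jx129S1/SvlmJ. The vehicle group received nuclease-free water, with 5 females and 4 males. The treated group (Str - let7f in the labels, let-7f below) received a locked nucleic acid mimic of the microRNA let-7f-5p in the same water, with 3 females and 2 males. The labels name no dam or litter, fetuses of a group may share one, and p-values here cover just the spread among the 14 animals. The series title asks how a raised zygotic let-7f-5p level bears on development and on sex-specific growth.

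The mitochondrial ribosome translates the few proteins that the mitochondrial genome encodes, all of them subunits of the respiratory chain and ATP synthase. Its RNAs come from the mitochondrial genome, while its proteins are made in the cytosol from nuclear genes and imported. Some of these proteins have a counterpart in the bacterial ribosome, and others are found only in mitochondrial ribosomes. MicroRNAs of the let-7 family pair through their seed with matching sites in transcripts and lower their level or translation.

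The mature miRNA, given by RefSeq on GRCm38.p6 at chr13:48537889-48537910 (minus strand), is shown first because its seed defines the sites sought in the members. Capitals mark the seed, bases 2 to 8.
mmu-let-7f-5p: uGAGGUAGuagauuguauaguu
Matches to the seed were sought in 3′ untranslated regions as CTACCTC (pairing with bases 2 to 8) or TACCTCA (bases 2 to 7 followed by A), which overlap in CTACCTCA. At least 1 match was found in 7 of the 78 members, or 8.97%, against 17.6% of 15448 tested genes with an annotated 3′ region. The median 3′ region was 358 bases long in members and 1165 bases in all those genes. The 7 were Mrpl15, Mrpl17, Mrpl19, Mrpl21, Mrpl34, Mrpl51 and Mrps25. The full 8-base match was present in 2 members, Mrpl15 and Mrps25, or 2.56%, against 3.85% of all genes. These 2 sites, and 1 of 3 matches in Mrpl17, are printed with the 7-base match in capitals.
Mrpl15: aagcagagtggCTACCTCacatagaagaa
Mrps25: tgatgccatgaCTACCTCagaacaccatc
Mrpl17: ggtatggggcaCTACCTCctggctcagtt
A match is a description of the letters and does not show that the site is used.

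Depth was lowest in let-7f male 1, with 27709934 reads, and highest in let-7f female 1, with 42898166. The members together took between 0.242% of reads (let-7f female 2) and 0.578% (let-7f male 1). Vehicle male 2 followed with 0.447% and vehicle female 1 with 0.374%. The same 3 libraries held the largest shares of cytosolic ribosomal protein reads, 15.8%, 9.46% and 6.96%, against 3.93% to 6.05% in the other 11. The median member difference is given with and without these 3 libraries for each comparison, an alternative chosen after seeing the data. It leaves let-7f male 2 as the only let-7f male.

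Member levels, as the mean deposited value over the 14 fetuses, ran from 284 for Mrps36 to 4752 for Mrpl12, with a median of 1337. Per kilobase of transcript, the only scale on which genes are compared, they spanned 36.0-fold. The highest were Mrpl52 at 4911 per kilobase, Mrpl33 at 4074 and Mrpl12 at 3611, all proteins of the large subunit, and Mrpl12 is the stalk protein that receives translation factors. The lowest were Mrpl57 at 136 per kilobase, Mrpl1 at 205 and Mrpl32 at 232, also of the large subunit. The length used was that of a single annotated transcript per gene, picked by annotation and not by its expression here. The span and the order rest on that choice. Small-subunit members had a median of 879 per kilobase and large-subunit members 923. Members with a bacterial counterpart had a median of 1091 per kilobase and those found only in mitochondria 735.

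Between vehicle fetuses of the same sex, the SD of log2 values had a median of 0.39 over the members and 0.31 over all tested genes. The steadiest was Mrps2, a small-subunit protein with a bacterial counterpart, at 0.07, followed by Mrpl39 at 0.14, Mrps5 at 0.16 and Mrpl1 at 0.21. The least steady were Mrps12 at 0.66, Mrpl52 at 0.65, Mrps21 and Mrps16 at 0.62 each. These values rested largely on vehicle male 2, without which they were 0.33, 0.36, 0.32 and 0.32, and the medians were 0.23 over the members and 0.24 over all tested genes. Mrps12 lies at the decoding site of the small subunit.

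In females, no member passed the test for let-7f against vehicle (limma, Benjamini-Hochberg adjusted p over 17400 genes, smallest member value 1.0). Genes with an adjusted p under 0.05 are named called below, and 0.00575% of all genes were. Differences are on the scale of log2(value + 1), with their standard error after ±. No member had an unadjusted limma p under 0.05, against 0.81% of all genes. Run on recovered reads, edgeR called 0% of all genes and DESeq2 0.0115%, and both called 0 members. The fitted log2 difference was below 0 for 73 members, against 50.9% of all genes, with a median of -0.14 beside -0.00 for all genes. Members shared their high and low libraries, so these are not 73 separate observations. Leaving out let-7f female 2 brought the median to -0.02 and leaving out vehicle female 1 brought it to -0.05, while leaving out let-7f female 3 gave -0.30.

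The lowest fitted value in females belonged to Mrpl58, a peptidyl-tRNA hydrolase built into the large subunit. It stood at 1614, 1278, 1203, 2081 and 1957 in vehicle females 1 to 5. In let-7f females 1 to 3 it stood at 1066, 937 and 1502. The groups overlapped, with 1 let-7f female inside the vehicle range. The log2 difference was -0.47 ± 0.38 (SE), with a 95% interval from -1.28 to 0.34 and a limma adjusted p of 1.0. Mrpl3, a large-subunit protein near the peptidyl transferase centre, had a difference of -0.28 ± 0.24. Mrps27, a small-subunit protein found only in mitochondria, had -0.23 ± 0.17. The highest were Mrpl22 at 0.11 ± 0.22 and Mrps5 at 0.08 ± 0.13. Without let-7f male 1, vehicle male 2 and vehicle female 1, the median in females was -0.05, and limma called 0 members and 0% of all genes.

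In males, the fitted difference was above 0 for all 78 members, against 49.9% of all genes, but no member passed the test. The median member difference was 0.61 on the log2 scale, beside -0.00 for all genes, and the smallest member adjusted p was 0.447 (limma, which called 0% of all genes). At an unadjusted limma p under 0.05 there were 6 members, beside 10.8% of all genes. EdgeR called 0% of all genes, with a smallest member adjusted p of 0.344. DESeq2 called 0.333% of all genes and 0 members, with a smallest member adjusted p of 0.141. The smallest unadjusted values belonged to Mrpl42 (0.70 ± 0.28), Mrps15 (0.99 ± 0.41) and Mrpl37 (0.67 ± 0.29), each with a limma adjusted p of 0.447.

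The male difference rested on 1 of the 2 let-7f males. Without let-7f male 1 the median was -0.04, with 30 members above 0, and limma called no member and 0% of all genes. Without let-7f male 2 the median was 1.284 and limma called 49 members, all higher, where it called 25.2% of all genes. With 1 fetus left in the group, that fetus is assumed to vary like the other groups, so this count describes 1 library. Let-7f male 2 lay inside the range of the 4 vehicle males for 76 members (72.5% of all genes). That range is wide, since vehicle male 2 was the highest of all vehicle fetuses for 76 members. As a mean log2 deviation over the members, let-7f male 2 stood at -0.14. This was above vehicle males 1, 3 and 4, at -0.37, -0.34 and -0.31, and below vehicle male 2, at 0.63. With let-7f male 1, vehicle male 2 and vehicle female 1 all left out, the median was 0.18, and limma called 0 members and 0% of all genes. The 7 members with a let-7 seed match had differences from -0.19 (Mrpl17) to -0.10 (Mrpl15) in females and from 0.21 (Mrpl19) to 1.06 (Mrps25) in males, and limma called none of them. In whole fetuses, fewer cells of a type and less RNA per cell cannot be told apart.

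Mrps12 had the largest male difference. Its values were 585, 2043, 568 and 613 in vehicle males 1 to 4 and 5081 and 926 in let-7f males 1 and 2. In vehicle females 1 to 5 it stood at 1319, 715, 668, 811 and 1029, and in let-7f females 1 to 3 at 578, 461 and 1022. Let-7f male 1 was the highest of the 14 fetuses, vehicle male 2 the second and let-7f female 2 the lowest, so the groups overlapped in both sexes. The log2 difference in males was 1.43 ± 0.63 (95% interval 0.07 to 2.80, limma adjusted p = 0.447), and in females it was -0.44 ± 0.53 (-1.59 to 0.71, adjusted p = 1.0).

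Mrpl52, a large-subunit protein with no bacterial counterpart, showed the largest gap between the 2 let-7f males, 9651 against 1206, a ratio of 8.0. Vehicle males 1 to 4 stood at 998, 3437, 1135 and 1067. Vehicle females 1 to 5 stood at 2127, 1023, 1096, 1682 and 1416, and let-7f females 1 to 3 at 1174, 990 and 1738. Again let-7f male 1 and vehicle male 2 stood above all others. The male difference was 1.26 ± 0.67 (95% interval -0.20 to 2.71, limma adjusted p = 0.447).

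Mrps16, another small-subunit protein of bacterial descent, followed the same order. It stood at 1033, 3090, 937 and 971 in vehicle males 1 to 4 and at 7135 and 1155 in the let-7f males. Vehicle females 1 to 5 had 1916, 1043, 1045, 1576 and 1431, and let-7f females 1 to 3 had 1075, 1007 and 1611. The male difference was 1.14 ± 0.61 (95% interval -0.19 to 2.46, limma adjusted p = 0.447).

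Mrpl12 had 2762, 7518, 3041 and 3432 in vehicle males 1 to 4 and 13688 and 3377 in the let-7f males. Vehicle females 1 to 5 had 5173, 3220, 3694, 5612 and 4175, and let-7f females 1 to 3 had 3410, 2699 and 4724. Here 2 of the 3 let-7f females lay inside the range of the vehicle females and the lowest below it. The male difference was 0.82 ± 0.50 (95% interval -0.25 to 1.90, limma adjusted p = 0.461) and the female one -0.28 ± 0.42 (-1.19 to 0.62, adjusted p = 1.0).

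**Figure D1:**
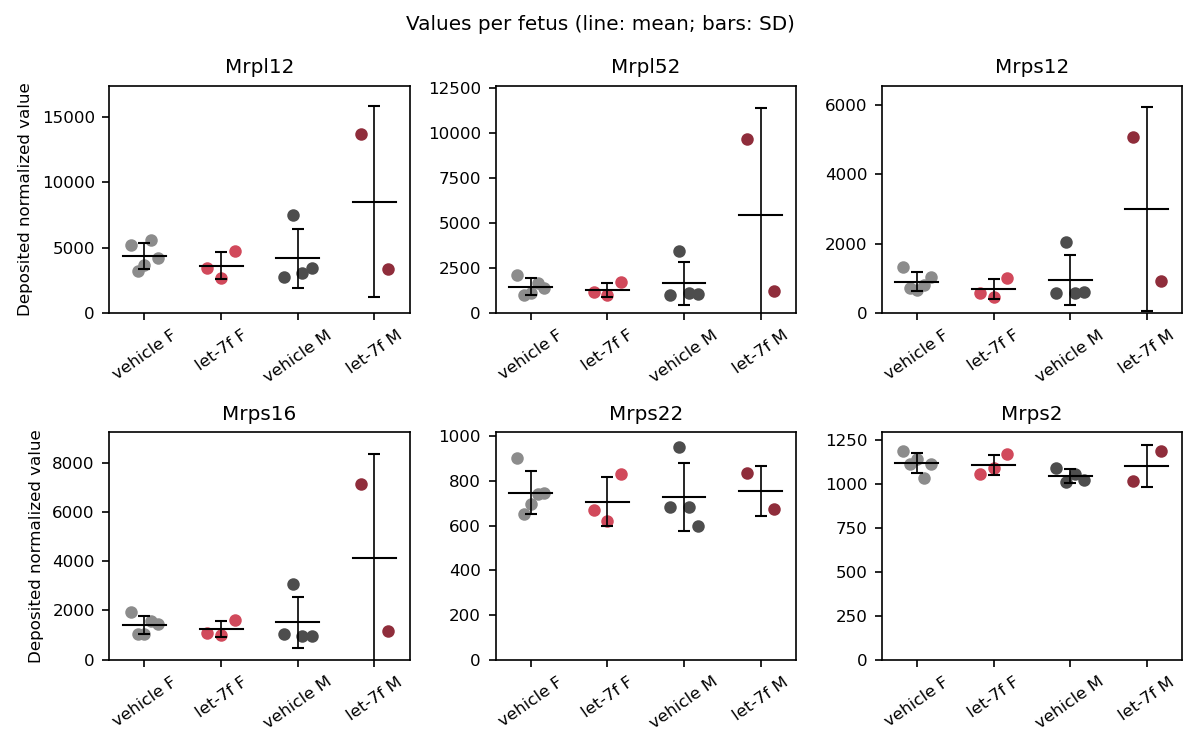
Deposited normalized value (linear axis from 0) of 6 members in each fetus by group, with F for females and M for males; points are fetuses, long lines are means and bars are SD. Mrpl12, Mrpl52, Mrps12 and Mrps16 each have 1 let-7f male far above every other fetus, while Mrps22 and Mrps2 do not.

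Not every member followed let-7f male 1. Mrps22, a small-subunit protein found only in mitochondria, had 682, 950, 684 and 599 in vehicle males 1 to 4 and 836 and 676 in let-7f males 1 and 2. The let-7f males lay inside the vehicle male range, with a difference of 0.07 ± 0.20 (95% interval -0.36 to 0.50, limma adjusted p = 0.879). Mrps2 had 1091, 1007, 1056 and 1019 in vehicle males 1 to 4, with 1017 and 1183 in the let-7f males. It was the single member whose value in let-7f male 1 was below that in let-7f male 2, with a ratio of 0.860. Its male difference was 0.07 ± 0.12 (95% interval -0.18 to 0.32, limma adjusted p = 0.760).

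Across members, let-7f male 1 was the highest of the 14 fetuses for 69 of 78, beside 30.4% of all tested genes. The 9 others were Mrpl19, Mrpl35, Mrpl50, Mrps2, Mrps7, Mrps10, Mrps22, Mrps27 and Mrps31. Vehicle male 2 was highest for 8 of these (10.5% of all genes) and vehicle female 1 for Mrps2 (3.47%). Among the 9 vehicle fetuses alone, vehicle male 2 was the highest for 76 members, beside 30.4% of all genes. Let-7f male 1, vehicle male 2 and vehicle female 1 were the top 3 for 67 members, beside 15% of all genes. At the other end, let-7f female 2 was the lowest for 32 members (9.94% of all genes) and vehicle male 1 for 18 (7.82%).

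**Figure D2:**
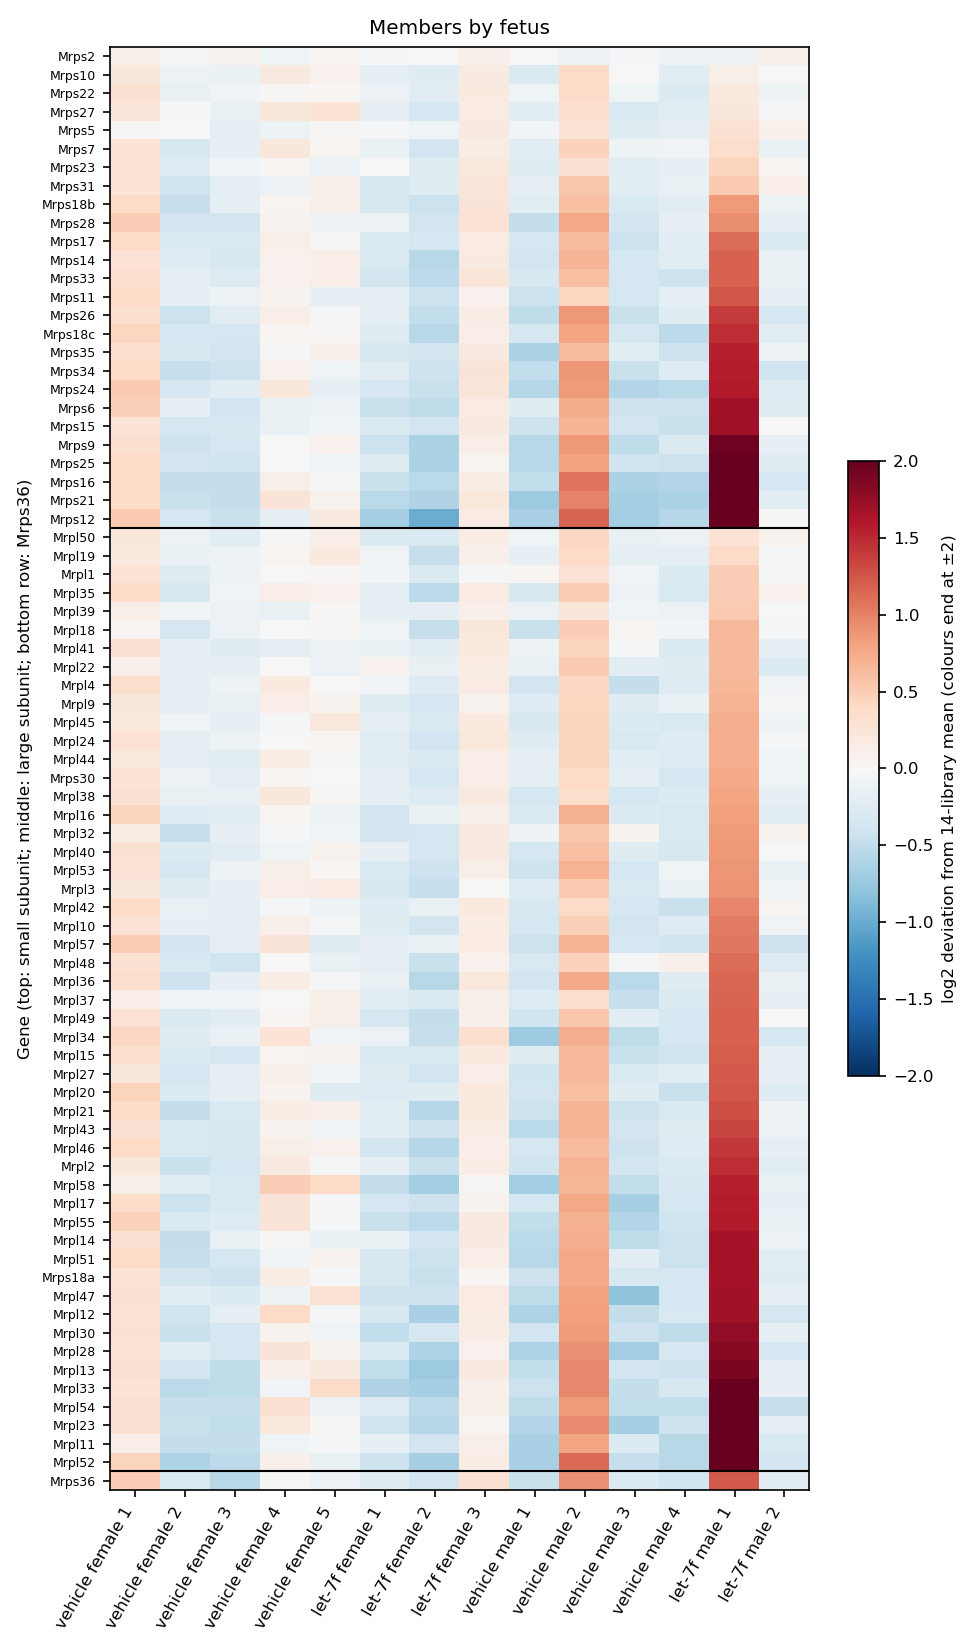
Log2 deviation of each member from its mean over the 14 fetuses (colour, ending at 2 in either direction) with members in rows by subunit and fetuses in columns by group. The column of let-7f male 1 is red for most members, that of vehicle male 2 less so, and the top rows (Mrps2, Mrps10, Mrps22) are pale.

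The deviation of let-7f male 1 from the mean of the 14 fetuses ran from -0.10 for Mrps2 to 2.62 for Mrpl52, with a median of 1.18, beside -0.02 for all tested genes. It was 2 or more for 9 members, among them Mrps12 at 2.47, Mrps21 at 2.40, Mrpl11 at 2.36 and Mrps16 at 2.29. Mrpl11 is part of the stalk base of the large subunit. The deviation was under 0.50 for 11 members. Small-subunit members had a median of 1.21 and large-subunit members 1.16, and members with a bacterial counterpart had 1.24 and those found only in mitochondria 1.02. Thus high and low members occurred in both subunits, and the difference between subunits or origins was not tested.

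The paralogues Mrps18a, Mrps18b and Mrps18c all descend from 1 bacterial protein, S18, and sit in different places. Mrps18a belongs to the large subunit despite its name, as does Mrps30. In let-7f males 1 and 2, Mrps18a had 3598 and 958, Mrps18b 1662 and 859, and Mrps18c 3158 and 964. The means of vehicle males were 1139 ± 511, 931 ± 314 and 1135 ± 548 (SD, n = 4), in the same order. Mrps30 had a vehicle male mean of 886 ± 219 and values of 1555 and 860 in the let-7f males. Every one of them was above the vehicle male mean in let-7f male 1 and below it in let-7f male 2. Vehicle male 2 raised each of these means. The value in let-7f male 2 was above those in vehicle males 1, 3 and 4 for every one of these genes. For Mrps18a these were 849, 904 and 898, with 1904 in vehicle male 2.

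Mrps36 carries a ribosomal name but is known as a subunit of the ketoglutarate dehydrogenase complex. It had 193, 500, 219 and 199 in vehicle males 1 to 4 and 617 and 226 in the let-7f males. Let-7f male 1 was again the highest and vehicle male 2 the next, with a male difference of 0.55 ± 0.44 (95% interval -0.41 to 1.51, limma adjusted p = 0.554).

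Over both sexes together the median member difference was 0.23, with 74 of 78 members above 0 beside 51.3% of all genes. No member was called (limma called 0% of all genes). There were 0 members at an unadjusted limma p under 0.05, beside 2.78% of all genes. EdgeR called 0% of all genes and DESeq2 0.046%, and both called 0 members. Without let-7f male 1 the median was -0.10, and without let-7f male 2 it was 0.58, with 3 members called beside 5.02% of all genes. The 4 members below 0 were of the small subunit, and Mrps7, Mrps10 and Mrps27 had the smallest p-values among them, at differences of -0.02, -0.02 and -0.01. The largest was Mrpl11 at 0.62 ± 0.37. With the 3 libraries left out the median was 0.06, and limma called 0 members and 0% of all genes.

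The let-7f difference in males minus that in females had a member median of 0.74, above 0 for all 78 members beside 49.5% of all genes. Again no member was called (limma called 0% of all genes, smallest member adjusted p = 0.522). EdgeR called 0% of all genes and DESeq2 0.155%, and both called 0 members. At an unadjusted limma p under 0.05 there were 2 members, Mrpl58 at 1.39 ± 0.58 and Mrps12 at 1.87 ± 0.83, beside 8.53% of all genes. Without let-7f male 1 the median was 0.11, with 59 members above 0. Without let-7f male 2 it was 1.41, with 42 members called beside 18.4% of all genes. Leaving out the 3 libraries gave 0.27, and limma called 0 members and 0% of all genes.

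Between vehicle males and females no member differed past the threshold (limma, 0.0402% of all genes called). There were 0 members at an unadjusted limma p under 0.05, beside 2.63% of all genes. EdgeR called 0.0287% of all genes and DESeq2 0.069%, and both called 0 members. The median of males minus females was -0.07, below 0 for 60 members beside 53.2% of all genes. Without vehicle male 2 it was -0.32, and without vehicle male 3 it was 0.03. Leaving out all 3 libraries gave -0.23, with 0 members called beside 0.046% of all genes. The largest values were -0.31 ± 0.34 for Mrpl58 and 0.18 ± 0.21 for Mrpl32. No member separated its groups without overlap for the treatment in females, where 0.787% of all genes did with let-7f above and 0.707% with let-7f below. Nor did any for the treatment in males (4.14% and 5.9% of all genes) or for vehicle males above or below vehicle females (0.672% and 0.759%).

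**Figure D3:**
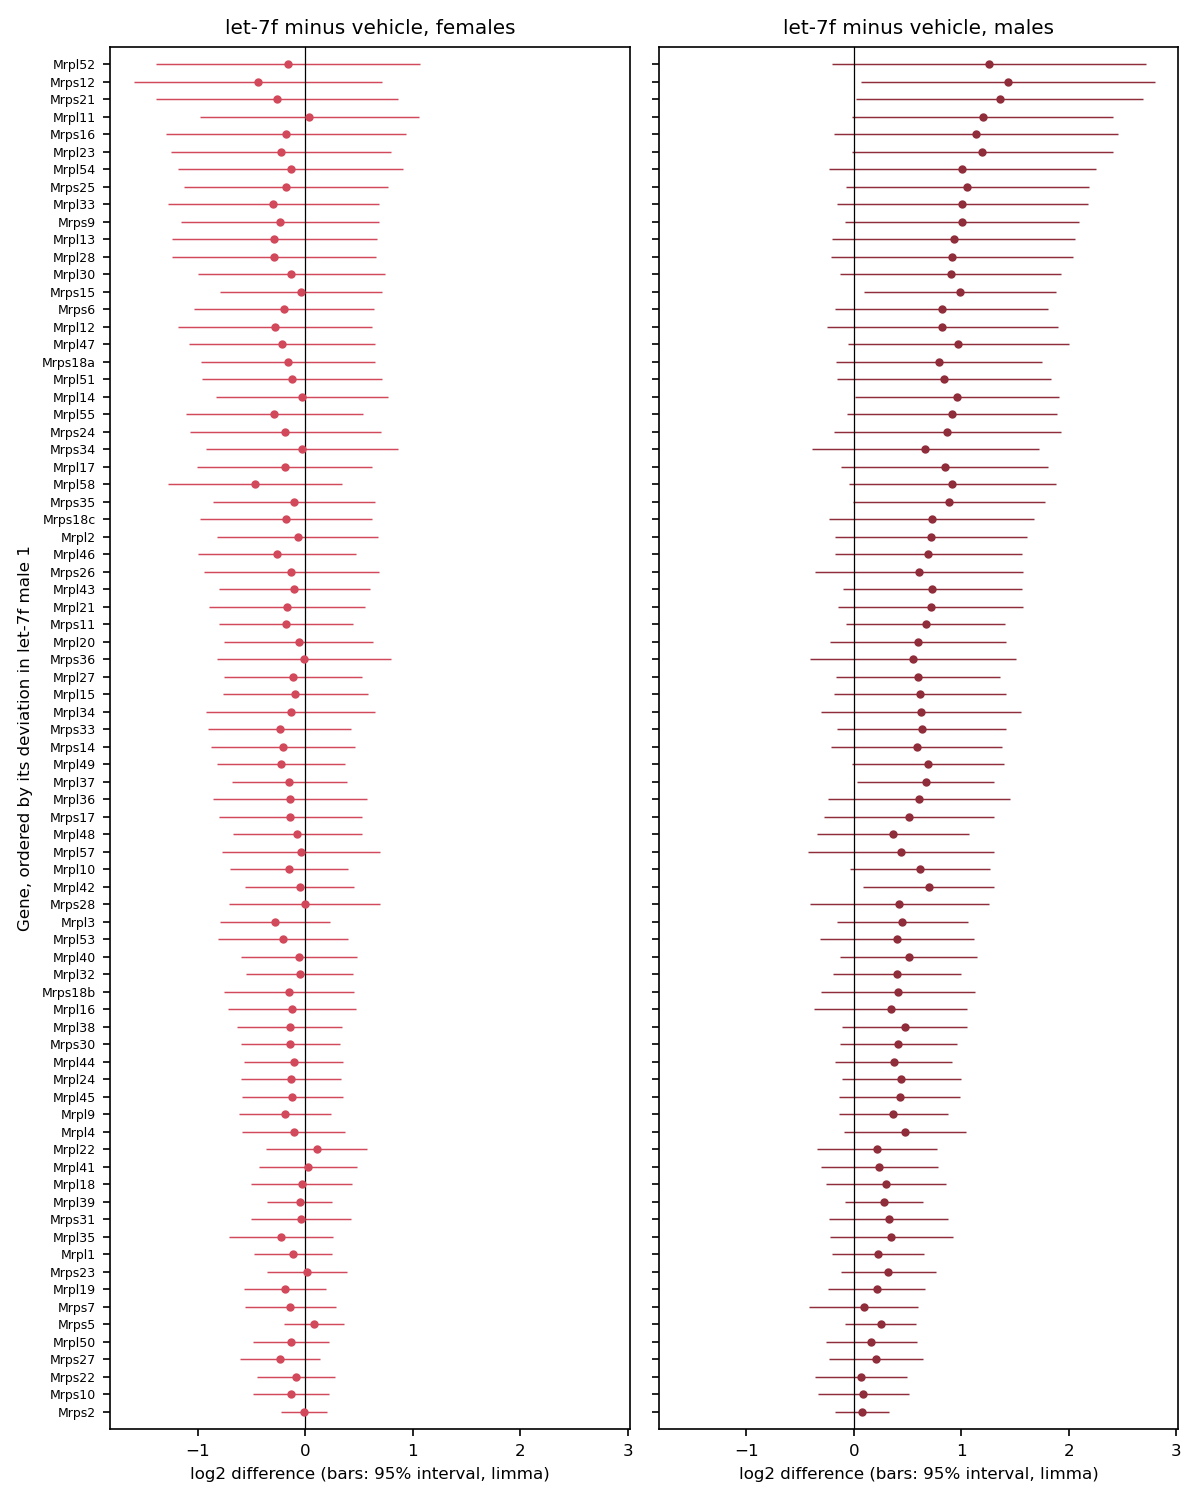
Fitted log2 difference of let-7f minus vehicle for each of the 78 members in females and in males, with 95% intervals from limma as bars and members ordered by their deviation in let-7f male 1. In females the points lie from -0.47 to 0.11 and every interval includes 0, while in males they lie from 0.07 to 1.43 and 6 intervals lie above 0.

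Promoters of 5 members, chosen after their values were seen, are shown so that members at both ends can be set side by side. Mrpl52 and Mrps12 had the largest deviations in let-7f male 1 and Mrps2 the smallest, Mrpl12 had the highest mean value and Mrps18a held both the ETS core and the YY1 letters. They were taken from RefSeq on GRCm38.p6, 250 bases before to 50 after the start, and 69 of the 78 members matched an entry. Capitals mark matches on either strand to the core ETS motif CCGGAAG (bound by GABPA), the YY1 motif AAGATGGCG or the NRF1 motif, all known from promoters of mitochondrial genes. The regions are chr11:120484387-120484686 (plus strand) for Mrpl12, chr14:54426659-54426958 (plus) for Mrpl52, chr7:28741772-28742071 (minus) for Mrps12, chr17:46110754-46111053 (plus) for Mrps18a and chr2:28467816-28468115 (plus) for Mrps2.
Mrpl12: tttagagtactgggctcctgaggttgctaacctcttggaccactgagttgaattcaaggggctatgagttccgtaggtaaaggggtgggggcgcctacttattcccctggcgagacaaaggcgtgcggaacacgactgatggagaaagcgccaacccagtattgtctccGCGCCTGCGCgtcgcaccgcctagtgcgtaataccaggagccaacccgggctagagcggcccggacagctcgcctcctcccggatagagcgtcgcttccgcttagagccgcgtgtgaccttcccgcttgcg
Mrpl52: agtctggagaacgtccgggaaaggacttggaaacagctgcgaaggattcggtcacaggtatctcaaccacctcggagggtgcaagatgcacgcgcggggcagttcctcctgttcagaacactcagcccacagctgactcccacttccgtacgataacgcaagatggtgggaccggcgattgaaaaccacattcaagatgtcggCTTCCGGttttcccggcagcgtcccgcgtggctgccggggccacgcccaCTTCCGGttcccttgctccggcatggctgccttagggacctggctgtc
Mrps12: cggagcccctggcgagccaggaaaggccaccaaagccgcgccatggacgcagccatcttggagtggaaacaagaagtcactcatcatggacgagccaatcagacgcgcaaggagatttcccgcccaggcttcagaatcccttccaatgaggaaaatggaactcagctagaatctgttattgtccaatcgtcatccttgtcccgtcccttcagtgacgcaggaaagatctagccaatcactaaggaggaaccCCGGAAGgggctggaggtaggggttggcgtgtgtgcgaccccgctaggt
Mrps18a: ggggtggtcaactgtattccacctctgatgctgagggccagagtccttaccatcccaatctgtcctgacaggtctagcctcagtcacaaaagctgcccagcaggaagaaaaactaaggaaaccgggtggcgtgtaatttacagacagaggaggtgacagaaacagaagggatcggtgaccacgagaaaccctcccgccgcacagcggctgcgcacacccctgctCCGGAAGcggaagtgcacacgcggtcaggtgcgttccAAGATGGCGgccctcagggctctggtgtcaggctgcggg
Mrps2: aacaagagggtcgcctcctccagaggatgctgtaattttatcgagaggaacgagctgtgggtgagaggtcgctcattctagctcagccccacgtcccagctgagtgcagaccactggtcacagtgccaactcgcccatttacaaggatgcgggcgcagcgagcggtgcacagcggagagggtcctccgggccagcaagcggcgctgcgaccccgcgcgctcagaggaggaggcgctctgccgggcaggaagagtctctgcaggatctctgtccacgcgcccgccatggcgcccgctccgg
Mrpl12 held 1 NRF1 match, Mrpl52 held 2 ETS matches, Mrps12 held 1 and Mrps18a held 1 ETS and 1 YY1 match. Mrps2 held none of these letters in this window, which says nothing of the factors themselves. The 5 shown do not stand for the other members. Mrps27 also held the ETS core and the YY1 letters, at a deviation of 0.23 in let-7f male 1. Mrps22, at 0.20, held the ETS core, while Mrpl11, at 2.36, held no ETS, NRF1 or YY1 match.

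Over the 69 members, the ETS core was found in 26 promoters, or 37.7%, beside 16.7% of 12468 promoters of the same length. NRF1 was found in 13, or 18.8%, beside 9.49%, and YY1 in 8, or 11.6%, beside 2.90%. The TATA box letters TATAAA were found in 5, or 7.25%, beside 9.98%, the E-box CACGTG in 5 beside 10.8%, and CCAAT in 27, or 39.1%, beside 42.4%. The median deviation in let-7f male 1 was 1.26 for the 26 members with an ETS match and 1.15 for the 43 without. It was 1.39 with an NRF1 match and 1.17 without, and 1.15 with a YY1 match and 1.18 without.

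Many members start close to another gene on the opposite strand. In the GENCODE M21 annotation of GRCm38, 23 of 78 members, or 29.5%, had a divergent protein-coding neighbour whose start lay within 1000 bases, with the starts overlapping by at most 300, beside 10.9% of 15606 tested protein-coding genes. Mrps12 started 172 bases from Sars2, the mitochondrial seryl-tRNA synthetase. Mrpl49 lay 59 bases from Fau, which encodes a cytosolic ribosomal protein fused to a ubiquitin-like protein. Mrpl40 lay 175 bases from Hira, a histone chaperone gene, and Mrpl36 overlapped the start of Ndufs6, a subunit of respiratory complex I, by 29 bases.

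Members are short genes, and the libraries that stood apart differed from the rest by coding length. Member coding lengths ran from 198 to 1329 bases, with a median of 585, against a median of 1394 over 15528 tested genes with a length. In let-7f male 1, all genes under 500 coding bases had a median deviation of 0.89, those from 500 to under 1000 of 0.29, those from 1000 to under 1500 of -0.01 and those of 1500 and over of -0.27. The members in the first 3 ranges had medians of 1.35 (27 members), 1.17 (39) and 0.63 (12). The member median was above that of all genes in each of these ranges, though single members lay below it, with a lowest value of 0.29 under 500 bases and -0.10 from 500 to under 1000.

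The same gradient, smaller, was present in vehicle male 2, where all genes went from 0.59 in the shortest to -0.21 in the longest range and members from 0.73 to 0.37 over their 3 ranges. In vehicle female 1 the medians of all genes went from 0.30 to -0.11. In let-7f female 2 it ran the other way, from -0.26 to 0.09, and members from -0.46 in the shortest range to -0.28 in their longest. The part of gene length in the member values was not tested.

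**Figure D4:**
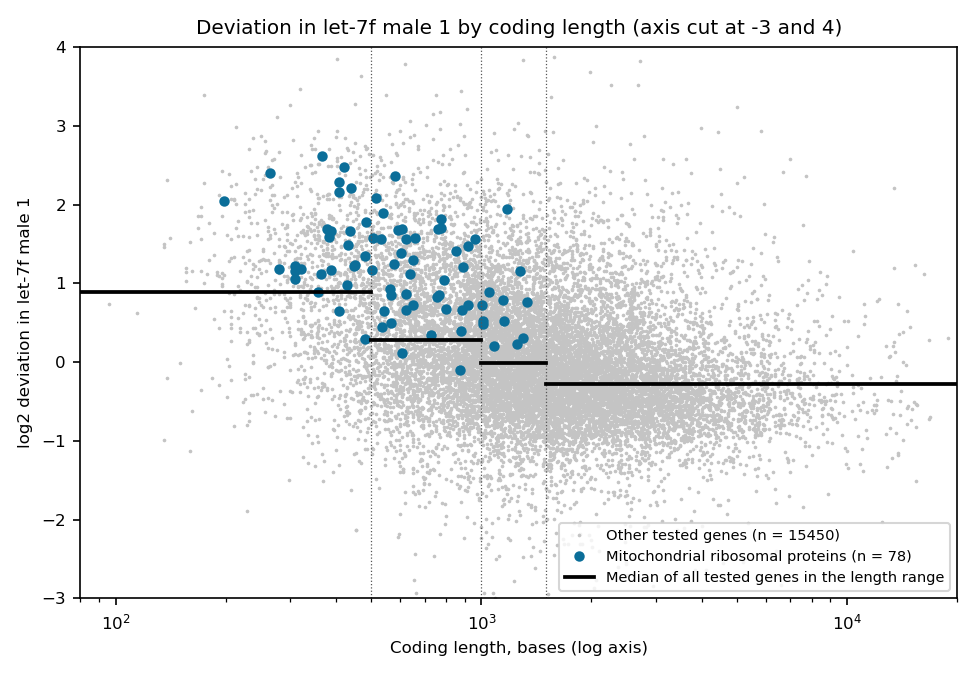
Log2 deviation of let-7f male 1 from the mean of the 14 fetuses (vertical axis, cut at both ends) against coding length (log axis) for the other tested genes in grey and 78 members in blue; black lines are medians of all tested genes in 4 length ranges. The medians fall from 0.89 to -0.27 with length, and most members lie above the line of their range.

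Other genes of mitochondrial translation were set beside the members, from lists of known components. Among the 5 mitoribosome proteins with other names, Dap3, Chchd1, Aurkaip1, Ptcd3 and Gadd45gip1, all 5 had a male difference above 0, beside 49.9% of all genes. Their median was 0.90, and none passed the test, with 0 called by edgeR or DESeq2. At an unadjusted limma p under 0.05 there were 0 in males, beside 10.8% of all genes. Aurkaip1 had 1.09 ± 0.54 and Chchd1 1.08 ± 0.53 (limma adjusted p = 0.447 each). In females all 5 were below 0, beside 50.9% of all genes. Their median there was -0.17, and that of the members was also below 0.

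Of 26 assembly factors, which build and modify the mitochondrial ribosome, 22 had a male difference above 0, beside 49.9% of all genes. Their median was 0.38. None was called in males or females by limma, edgeR or DESeq2. At an unadjusted limma p under 0.05 there were 4 in males, beside 10.8% of all genes, and 0 in females, beside 0.81%. Mettl15, a methyltransferase of the small ribosomal RNA, had 0.47 ± 0.19, and Ybey, a ribosomal RNA endonuclease, had 0.37 ± 0.15 (limma adjusted p = 0.447 each). In females the median was -0.12, with Eral1, a chaperone of the small ribosomal RNA, at -0.23 ± 0.14 (limma adjusted p = 1.0).

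The 14 translation factors had a male median of 0.25 and a female median of -0.06, with none called by limma, edgeR or DESeq2. Of them, 1 had an unadjusted limma p under 0.05 in males, beside 10.8% of all genes. Oxa1l, which inserts newly made proteins into the inner membrane, had 0.38 ± 0.17 in males. Tufm, the mitochondrial elongation factor Tu, had -0.37 ± 0.21 in females (limma adjusted p = 1.0). The 20 mitochondrial aminoacyl-tRNA synthetases and related enzymes had medians of 0.23 and -0.05. None was called by limma or edgeR, and 3 had an unadjusted limma p under 0.05 in males, beside 10.8% of all genes.

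The 17 genes of mitochondrial transcription and mRNA upkeep had medians of 0.17 in males and -0.13 in females. Slirp, which stabilises mitochondrial mRNAs, had 1.57 ± 0.63 in males, and Polrmt, the mitochondrial RNA polymerase, had 0.79 ± 0.33 (limma adjusted p = 0.447 each). The 12 nuclear regulators of mitochondrial genes went the other way, with medians of -0.10 in males and 0.04 in females. The 10 genes of the let-7 pathway had medians of 0.20 in males and -0.07 in females, with Trim71, a known let-7 target, at 0.50 ± 0.37 in males (limma adjusted p = 0.523). None of these genes was called by limma, edgeR or DESeq2 in either sex. At an unadjusted limma p under 0.05 there were 3, 0 and 0 genes of the 3 lists in males, beside 10.8% of all genes. In females there were 0, beside 0.81%.

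The per-fetus score, the mean log2 deviation of a list from the 14-fetus mean, showed which lists moved with the members. The member score was 1.20 in let-7f male 1, 0.63 in vehicle male 2 and 0.31 in vehicle female 1, and -0.41 in let-7f female 2. In vehicle females it was -0.03 ± 0.25 (SD, n = 5), in let-7f females -0.17 ± 0.29 (n = 3) and in vehicle males -0.10 ± 0.49 (n = 4). Let-7f male 2 stood at -0.14, above vehicle males 1, 3 and 4 (-0.37, -0.34 and -0.31) and below vehicle male 2.

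The score of 80 cytosolic ribosomal proteins was 1.89 in let-7f male 1, 0.92 in vehicle male 2 and 0.37 in vehicle female 1. That of 83 nuclear respiratory chain genes was 1.60, 0.82 and 0.36. That of the assembly factors was 0.67, 0.32 and 0.15. The 12 respiratory chain genes tested of the mitochondrial genome had -0.26, -0.18 and 0.27 in the same fetuses. In males, cytosolic ribosomal proteins had a median difference of 0.99, nuclear respiratory chain genes 0.76 and mitochondrially encoded genes -0.21, with none called by limma. There were 4, 6 and 1 genes of these lists at an unadjusted limma p under 0.05, beside 10.8% of all genes.

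**Figure D5:**
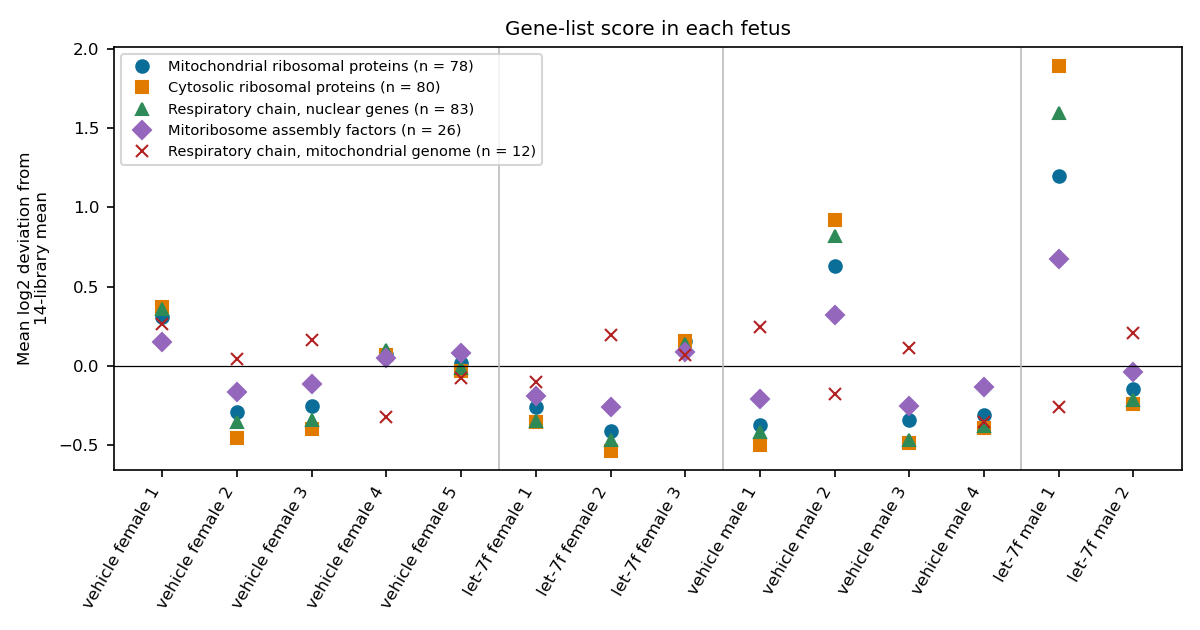
Mean log2 deviation from the 14-library mean of 5 gene lists in each fetus, grouped by treatment and sex. Members (circles) lie between the cytosolic ribosomal and nuclear respiratory chain genes and the assembly factors in let-7f male 1 (1.89, 1.60, 1.20 and 0.67 from top to bottom), while the genes of the mitochondrial genome (crosses) lie at -0.26.

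Markers of organs of the fetus were all detected, with none of the listed markers of heart, red blood cells, liver, neural progenitors, neurons, skeletal muscle or cartilage at 0 in any library. The summed value of 5 heart markers was 76969 in let-7f male 1 and 12192 in let-7f male 2, against 12308 to 32634 in vehicle males and 11923 to 21484 in vehicle females. Let-7f females lay between 14220 and 22005, and 4 of the 5 heart markers were highest in let-7f male 1, beside 30.4% of all tested genes. The 7 red blood cell markers summed to 973581 in let-7f male 1, against 317437 to 881822 in vehicle males. The 9 liver markers summed to 188610 there, against 55921 to 173652 in vehicle males and 1412 to 126436 in vehicle females. Vehicle female 2 stood apart, with a per-fetus liver marker score of -5.73, the lowest of any fetus. The next lowest was -0.79, in vehicle female 5. The red blood cell marker score was also lowest in vehicle female 2, at -1.39. The main fit kept this fetus, and the cause of its low scores was not tested. Of the red blood cell markers 4 of 7 were highest in let-7f male 1, of the liver markers 4 of 9 and of the neural progenitor markers 3 of 5. For neurons it was 2 of 4, for skeletal muscle 1 of 4 and for cartilage 0 of 3, against the same 30.4% of all tested genes. DESeq2 called the embryonic globins Hba-x, at 2.12 ± 0.44, and Hbb-bh1, at 2.98 ± 0.62, in males (adjusted p = 0.00172 for each), where the limma adjusted p was 0.447 for each. Of the 7 red blood cell markers, 5 had a male difference above 0 and 2 below, with a median of 0.47 (limma). In vehicle males minus vehicle females, Hba-x stood at -1.07 ± 0.34 and Hbb-bh1 at -1.38 ± 0.50, and limma called neither. The 5 neural progenitor markers summed to 48544 in let-7f male 1, above the 28535 to 34344 of vehicle males and 32280 to 43680 of vehicle females. The 3 cartilage markers summed to 20839 there, below the 24195 to 33255 of vehicle males and 25304 to 32838 of vehicle females. The 4 neuron markers summed to 43634 there, inside the 42494 to 47878 of vehicle males and the 39959 to 50275 of vehicle females. The 4 skeletal muscle markers summed to 41607 there, inside the 28028 to 45665 of vehicle males and above the 19857 to 40811 of vehicle females. The part of these cells in the member values was not tested.

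Some members share letters with other transcripts, which could split reads between them. Stretches of at least 100 bases with at least 99% identity to another transcript were found for 16 members, Mrps11 and Mrpl46 sharing one with each other. In 14 of them the other gene lay on the opposite strand, as for Mrps25 and Nr2c2 (3533 bases), Mrpl19 and Gcfc2 (1967), Mrps34 and Mapk8ip3 (504) and Mrpl47 and Actl6a (453). In 2, Mrps18b and Mrps6, it lay on the same strand. The library kit keeps strand, per the labels' protocols, but the sources used here do not say whether counting used it, so the values of these 16 members are uncertain to that extent. Among the named members these are Mrpl13, Mrpl44, Mrps7, Mrps18b and Mrps34.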

How the data were processed

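Poly-A RNA of 14 whole mouse fetuses was sequenced from stranded libraries. The values the authors deposited are a normalized signal for each gene, called normalized counts per the labels. The submitters' processing notes list kallisto 0.50.1, Trimmomatic 0.39, DESeq2 1.48.2, MultiQC 1.28, FastQC 0.12.1 and the build GRCm39, without saying how each was used. Divided by the library's smallest value above 0, taken as 1 read, 100% of values in each library came within 1e-06 of a whole number. These whole numbers are called recovered reads, 27709934 to 42898166 per library. Whether they had been rounded from estimates before scaling is not known. A row without a gene name (0.0180% to 0.0334% of reads) was left out. No library repeated another, since each of the 20 same-group pairs had a chi-square of at least 18.6 per degree of freedom.

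Groups came from the sample titles. Genes with a mean value of at least 10 were tested on log2(value + 1) with limma 3.58.1 in R 4.3.3 (a mean per group, 10 residual degrees of freedom, intensity trend), with Benjamini-Hochberg adjustment over 17400 genes and a threshold of 0.05. Fold changes of low genes are understated on this scale. On the recovered reads, the quasi-likelihood test of edgeR 4.0.16 called 5 genes for sex and 0 in each let-7f comparison. The Wald test of DESeq2 1.42.0 called 2 genes in females, 58 in males, 8 for the sexes combined, 27 for their difference and 12 for sex. The procedure was tested on simulated data. Lengths, neighbours and 3′ regions came from GENCODE M21 (GRCm38, older than the build named above), and shared stretches from BLAST+ 2.17.0+.

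The members, lists and rules were chosen with earlier results of these data known. Named members, 38 in all, were those with the smallest p in each direction of each comparison, the highest and lowest levels, the largest and smallest vehicle SD, and a set chosen for function. Others, as examples of a count or of a sequence match, were chosen after their values were seen. Alternatives were 2 pseudocounts, 2 filters, 2 scalings, the count tests, only the groups compared, the replicate block, each library left out in turn, 5 libraries that stood apart left out and, added after seeing the data, the 3 libraries richest in cytosolic ribosomal protein reads left out. DESeq2 calls within the aminoacyl-tRNA synthetase list are not reported here.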

Additional observations from a re-analysis of the deposited data

Results flagged for a closer look

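The highest and lowest fetus of each vehicle group was compared with its group for the 38 named members and the member score. Of these 78 tests, chance flags about 1 in 20 where members are not chosen by their spread. Mrps12, Mrpl52, Mrps21 and Mrps16 were named for a large vehicle SD, and Mrps2, Mrpl39, Mrps5 and Mrpl1 for a small one. That rate does not hold for any of these. A fetus stood far from the others of its group in 27 of the 78 tests, each time as the highest.

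Vehicle male 2 accounted for 25. Its member score was 0.63, the other 3 vehicle males being at -0.37 to -0.31. Its deposited values stood above those of the other vehicle males by a gap of at least 0.829 of the group's range, at Mrpl12 7518, Mrpl13 4587, Mrpl22 894, Mrpl28 5306, Mrpl3 3066, Mrpl33 3222, Mrpl34 803, Mrpl39 1429, Mrpl42 1406, Mrpl44 1036, Mrpl52 3437, Mrpl57 598, Mrps12 2043, Mrps15 2446, Mrps16 3089.6, Mrps18a 1904, Mrps18b 1400.0, Mrps18c 1954, Mrps21 1926, Mrps27 2539.9, Mrps30 1209.7, Mrps34 1995, Mrps36 500.1 and Mrps7 2877. These tests share 1 library and are not independent.

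Vehicle female 1 accounted for the other 2, with a gap of at least 0.71 of the range. Mrpl41 had a deposited value of 872 there and Mrpl42 of 1430.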

How the results depend on the processing

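No member was called in females or for sex in vehicle under any alternative run. With 1 library left out in turn, the median member difference ran from -0.30 to -0.02 in females, -0.037 to 1.284 in males, -0.10 to 0.58 over both sexes, 0.11 to 1.41 for the difference between sexes, and -0.32 to 0.03 for sex. The members called ran from 0 to 49 in males, 0 to 3 over both sexes and 0 to 42 for the difference, all of them without let-7f male 2. Without the 3 libraries richest in cytosolic ribosomal protein reads, an alternative chosen after seeing the data, the median difference between sexes was 0.27. In males it was then 0.18, as without the 5 libraries that stood apart. The cause was not tested. TMM scaling gave medians of -0.14 in females and 0.60 in males, and scaling to the 75th percentile -0.11 and 0.55. With the replicate block the medians were -0.14, 0.58, 0.20, 0.71 and -0.05, in the order above, and 0 members were called. The main fit did not pair samples by replicate number, and whether the numbers pair them could not be decided. Of 16 same-numbered pairs, 5 had a correlation of deviations over 0.1 (range -0.58 to 0.35). In all, 1 of 14 libraries correlated best with its own number. Deviations were taken from group means, so those of the 2 let-7f males mirror each other and their correlations are not separate. Of 4864 results for single named members under alternatives, 4505 kept their direction and their side of the threshold, 318 uncalled values changed sign, 41 passed the threshold (all without let-7f male 2) and 0 were lost or reversed. With 2 let-7f males, the male median rests on 1 library. Every member was above 0 in every library, and whether depth limits the members was not tested.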
